A study of Mus musculus with 27 samples.

Results

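The S100 genes encode small calcium-binding proteins, and 10 of them were followed here through cultured and freshly isolated mouse skin cells: S100a3, S100a4, S100a6, S100a7a, S100a8, S100a9, S100a10, S100a11, S100a14 and S100a16. They were taken by symbol, and all 10 were present among the 51906 genes of the bulk RNA-seq table and among the 32285 genes of each single-cell table. Bulk RNA-seq covered hair follicle stem cells (HFSCs) grown in 3D culture from mice in telogen, the resting phase of the hair cycle, at postnatal day 55. Wild-type HFSCs and HFSCs with a conditional knockout of the retinoid X receptor gene Rxra (Rxra cKO) were each grown either with fetal bovine serum (FBS) or without serum in B-27 medium holding all-trans retinoic acid and a protein kinase C inhibitor (atRA+PKCi). Each of the 4 groups held 2 libraries, 1 from each of 2 mice of that genotype, and the same mouse number in the 2 media stood for the same animal. The Rxra cKO mice carried Sox9-CreER, Rxra fl/fl and R26-YFP, so that deletion was induced by tamoxifen and limited to cells with Sox9 promoter activity. All lines had been established on mitomycin-inactivated feeder cells. Single-cell RNA-seq covered anagen VI back skin of 2 mice at postnatal day 32, and HFSCs cultured from the same mice in media marked with hashtags.

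S100 proteins work mostly as dimers that expose a binding surface when calcium rises, and each member has its own partners. S100a8 and S100a9 form calprotectin, a metal-binding antimicrobial complex that is abundant in neutrophils and is also made by stressed keratinocytes, and S100a7a belongs to the psoriasin group of keratinocyte antimicrobial proteins. S100a10 joins annexin A2 and S100a11 joins annexin A1 at membranes, S100a6 binds the ubiquitin-ligase adaptor Cacybp, and S100a4 binds the heavy chain of non-muscle myosin. S100a3 is a protein of the hair shaft, best known from its cuticle, and S100a14 and S100a16 are expressed in epithelia.

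All 10 genes lie on chromosome 3 (GRCm38). From S100a14 (chr3:90526856-90528837) to S100a9 (chr3:90692632-90695721), 8 of them form a row in the order S100a14, S100a16, S100a3, S100a4, S100a6, S100a7a, S100a8 and S100a9, in which S100a9 is the only one on the minus strand. S100a11 (chr3:93520488-93526287) and S100a10 (chr3:93555080-93564643) are direct neighbours farther along the chromosome. The annotated S100a3 gene (chr3:90560578-90602702) shares its strand and part of its span with S100a2 and with the gene model Gm42674, and S100a4 (chr3:90603771-90606045) overlaps the same model, so reads of these genes may be divided between models and their counts are uncertain to that extent.

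RefSeq promoter windows (GRCm38.p6) were matched for 8 of the 10 genes, in 12 windows of 250 bases before a start site; S100a10 and S100a14 were not matched. The S100a4 promoter is shown because this gene had the largest rise in wild-type HFSCs, that of S100a9 because it fell and holds none of the motifs searched, and that of S100a11 because it holds most matches. Each begins 250 bases upstream and runs to the base before the RefSeq start site, except that the S100a11 sequence is 242 bases long, because its last bases before that site are exonic in another annotated transcript and were left out. Capitals mark TGANTCA (the AP-1 motif) and AGGTCA, the retinoid receptor half-site, on either strand.
S100a4: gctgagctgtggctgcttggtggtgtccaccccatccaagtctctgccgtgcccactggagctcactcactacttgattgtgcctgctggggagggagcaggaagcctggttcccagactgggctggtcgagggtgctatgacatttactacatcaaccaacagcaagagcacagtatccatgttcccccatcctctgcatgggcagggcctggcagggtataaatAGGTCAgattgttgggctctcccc
S100a9: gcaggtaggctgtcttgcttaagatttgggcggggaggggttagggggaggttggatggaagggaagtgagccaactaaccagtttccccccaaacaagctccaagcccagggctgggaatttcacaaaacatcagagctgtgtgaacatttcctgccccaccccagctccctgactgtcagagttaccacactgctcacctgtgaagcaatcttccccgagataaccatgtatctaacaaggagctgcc
S100a11: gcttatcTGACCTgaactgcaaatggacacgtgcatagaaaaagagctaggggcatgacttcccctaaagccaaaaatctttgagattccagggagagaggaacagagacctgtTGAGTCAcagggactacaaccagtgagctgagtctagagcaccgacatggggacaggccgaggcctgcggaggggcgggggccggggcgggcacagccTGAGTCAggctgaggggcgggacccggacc
The windows are chr3:90603520-90603769 (plus strand), chr3:90695722-90695971 (minus strand) and chr3:93520246-93520487 (plus strand). S100a4 held AGGTCA at -24 to -19 from its start site. S100a11 held TGANTCA at -136 to -130 and at -38 to -32, and AGGTCA on the other strand at -243 to -238. S100a3 and S100a16 were the other genes with a match, which makes 4 of the 8 genes with a window. Among all 32851 mouse promoter windows of this length, 6.75% held TGANTCA and 4607 held AGGTCA. These are counts of windows for each motif. Some of the 8 genes had several windows and a match to either motif counted, so the 4 genes cannot be set against them. A direct repeat of AGGTCA with any 5 bases between was in no window of an S100 gene and in 0.00913% of all windows. These matches are descriptions of the letters and not of binding.

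The bulk libraries held 25150265 to 35879777 counts each, and 15965 genes passed the filter on low counts, including all 10 S100 genes. Rxra was measured first as a check of the labels. Its level was 149 and 122 CPM (counts scaled to library size) in wild-type HFSCs with FBS and 97.2 and 95.7 CPM in those labelled Rxra cKO (log2 fold change -0.49 ± 0.09 SE, edgeR adjusted p = 0.00264), but in atRA+PKCi it was 147 and 143 CPM against 148 and 145 CPM (log2 fold change 0.01 ± 0.09, edgeR adjusted p = 0.927). The 2 genotypes were therefore not separated by Rxra in atRA+PKCi; a count over the whole gene does not resolve the deleted part. Every difference between genotypes below is one between libraries labelled wild-type and Rxra cKO. Of the stem cell markers, Krt15 carried nearly all of a summed list level of 4433 to 4578 CPM in wild-type atRA+PKCi and 261 to 270 CPM in Rxra cKO atRA+PKCi, against 13.6 to 22.3 CPM in the FBS libraries, while Cd34 and Lhx2, which define HFSCs in skin, were at most 2.91 and 0.10 CPM in any library. The list as a whole did not follow that sum. Of its 5 tested markers, 1 was higher and 3 lower with atRA+PKCi in wild-type (median log2 fold change -2.24), beside 27.2% and 26.6% of all genes. In the labelled Rxra cKO 2 were higher and 1 lower (median 0.28), beside 20.8% and 22.2% of all genes.

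**Figure D1:**
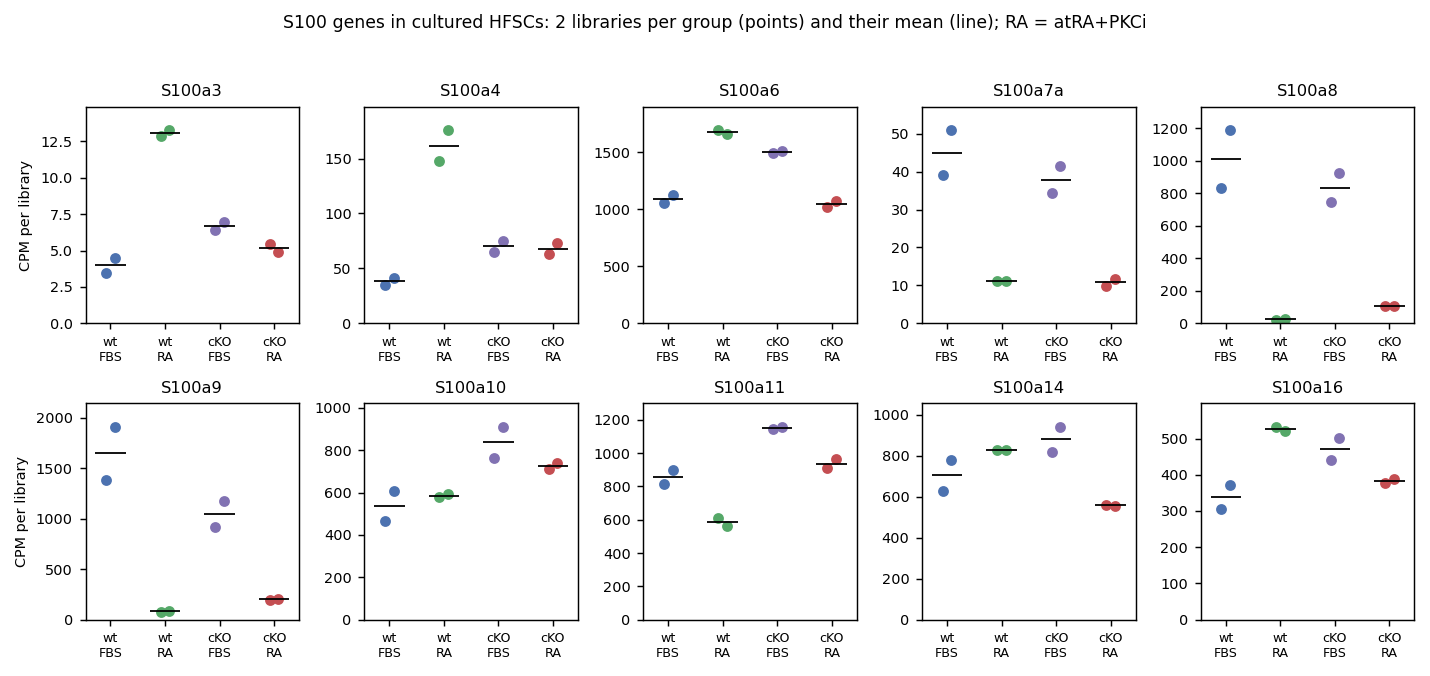
Each panel plots one S100 gene in CPM per library (y axis, starting at 0) by genotype (wild-type, wt, or Rxra cKO) and medium (FBS or atRA+PKCi, written RA), with a point for each of the 2 libraries and a line at their mean. S100a3 and S100a4 stood highest in wild-type atRA+PKCi (12.9 and 13.3 CPM, and 147 and 176 CPM), and S100a8 lowest there (23.3 and 26.6 CPM).

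The first question was how the S100 genes differed between serum and atRA+PKCi in wild-type HFSCs. The atRA+PKCi medium also lacked serum and held B-27, and no bulk library had B-27 alone. Loss of serum, B-27, atRA and the inhibitor therefore cannot be told apart in the bulk data. A response to atRA+PKCi below means the difference between these 2 media. The antimicrobial members fell, S100a8 by a factor of 40.5 and S100a9 by a factor of 20.1, whereas S100a4 rose 4.24-fold and S100a3 rose 3.29-fold. In all, 4 of the 10 genes were higher in atRA+PKCi, 4 were lower and 2 did not pass the test; of all genes tested, 27.2% were called higher and 26.6% lower, 53.9% in all, so calls were common and the counts of S100 genes are read against that. The median log2 fold change of the 10 genes was 0.18, beside 0.03 over all genes. In bulk libraries, fewer cells of a type and less RNA per cell cannot be told apart.

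S100a8 measured 833 and 1189 CPM with FBS and 23.3 and 26.6 CPM with atRA+PKCi in wild-type HFSCs, a log2 fold change of -5.34 ± 0.20 (edgeR adjusted p = 1.01e-07). S100a9, its calprotectin partner, measured 1379 and 1910.4 CPM with FBS and 74.9 and 88.4 CPM with atRA+PKCi, a log2 fold change of -4.33 ± 0.19 (edgeR adjusted p = 2.82e-07). Neither gene's libraries overlapped between the media, which is frequent with 2 libraries a group and was not counted over all genes. S100a7a, the psoriasin-like member, fell from 39.1 and 51.0 CPM to 11.3 and 11.2 CPM (a factor of 4.01, with an SE of 0.15 on the log2 scale and edgeR adjusted p = 8.29e-06). S100a11 fell less, from 814 and 901 CPM to 611 and 562 CPM (log2 fold change -0.55 ± 0.08, edgeR adjusted p = 0.000549).

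Markers of immune cells, which also make calprotectin, were low in these libraries. Of the 8 immune markers, Cd207, Cd3e, H2-Aa and Tyrobp were at 0 in every library, and the summed level of the list was 0 to 1.89 CPM. The 6 myeloid markers summed to 20.95 to 23.4 CPM in wild-type FBS, 9.62 to 10.96 CPM in wild-type atRA+PKCi, 15.2 to 15.7 CPM in Rxra cKO FBS and 7.49 to 8.53 CPM in Rxra cKO atRA+PKCi. That sum came mostly from Cd68 and Cxcr2, while Lyz2, a lysozyme of macrophages and neutrophils, was at most 0.05 CPM and Csf3r, the receptor of neutrophil growth factor, at most 0.06 CPM. The summed level of the 9 markers of suprabasal epidermis was highest and lowest in the same groups as S100a8 and S100a9. The companion layer, outer root sheath, basal epidermis and adipocyte lists also had these highest and lowest groups. Companion layer markers summed to 26387 to 26625 CPM in wild-type FBS and 2091 to 2106 CPM in wild-type atRA+PKCi. The part of these lists in the S100 differences was not tested. The suprabasal markers summed to 4289 to 4534 CPM in wild-type FBS and 293 to 296 CPM in wild-type atRA+PKCi. In the labelled Rxra cKO they summed to 2283 to 2851 CPM in FBS and 819 to 879 CPM in atRA+PKCi. Single markers did not all follow the sum: with atRA+PKCi 8 of the 9 were lower and 1, Krt79, was higher in wild-type, while 6 were lower and 3 higher in the labelled Rxra cKO, with the keratins Krt1 and Krt10 among the latter (log2 fold changes 3.70 and 1.64).

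S100a4 measured 34.7 and 41.5 CPM with FBS and 147 and 176 CPM with atRA+PKCi in wild-type HFSCs (log2 fold change 2.08 ± 0.13, edgeR adjusted p = 2.45e-06). S100a3, the hair shaft member, measured 3.47 and 4.48 CPM with FBS and 12.9 and 13.3 CPM with atRA+PKCi (log2 fold change 1.72 ± 0.15, edgeR adjusted p = 2.07e-05). The rises of S100a6 and S100a16 were smaller, with log2 fold changes of 0.62 ± 0.07 (edgeR adjusted p = 0.000133) and 0.64 ± 0.10 (edgeR adjusted p = 0.000793). The libraries of these 4 genes did not overlap between the media. This adds little to the test with 2 libraries a group and was not counted over all genes. S100a4 is also known as a fibroblast gene, so the 7 fibroblast markers were summed, with Lum at 0 throughout. Their sum with FBS was 7.76 to 11.6 CPM for wild-type HFSCs and 6.26 to 8.36 CPM for those labelled Rxra cKO. With atRA+PKCi it was 1.32 to 4.37 CPM and 4.74 to 5.48 CPM, in the same order. The sum was lower with atRA+PKCi for both genotypes, but single markers did not all follow it. Of the 5 markers tested, 2 were lower in wild-type and 1 in the labelled Rxra cKO, beside 26.6% and 22.2% of all genes. None was called higher. Their median log2 fold changes were -0.96 and 0.40. S100a4 was called higher only for wild-type. What part fibroblasts had in the S100a4 difference was not tested. S100a10 and S100a14 did not pass the test: their log2 fold changes were 0.13 (95% interval -0.16 to 0.42) and 0.23 (95% interval -0.02 to 0.48). Both were called higher when the second wild-type FBS library was left out (edgeR adjusted p = 0.0385 and 0.0112).

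In HFSCs labelled Rxra cKO, none of the S100 genes was called higher in atRA+PKCi than in FBS and 7 of 10 were called lower. Of all genes, 20.8% were called higher and 22.2% lower (43.0% in all). The median log2 fold change of the 10 S100 genes was -0.44, beside 0.02 over all genes. S100a8 fell from 746 and 922 CPM to 105 and 109 CPM (log2 fold change -2.96 ± 0.18, edgeR adjusted p = 4.05e-06), and S100a9 from 917 and 1177 CPM to 198 and 203 CPM (log2 fold change -2.38 ± 0.18, edgeR adjusted p = 1.30e-05). S100a7a fell from 34.5 and 41.4 CPM to 9.77 and 11.8 CPM (log2 fold change -1.82 ± 0.15, edgeR adjusted p = 2.83e-05).

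Among the other members, S100a6 was lower in atRA+PKCi in the labelled Rxra cKO libraries (1496 and 1515 CPM against 1019 and 1073 CPM, log2 fold change -0.52 ± 0.07, edgeR adjusted p = 0.000551), and so was S100a14 (817 and 941 CPM against 558 and 556 CPM, log2 fold change -0.66 ± 0.11, edgeR adjusted p = 0.00147). S100a11 and S100a16 were lower by 0.30 on the log2 scale, with edgeR adjusted p = 0.0176 and 0.0443. Both calls were lost whenever any 1 of the 4 Rxra cKO libraries was left out (edgeR adjusted p between 0.057 and 0.235), and that of S100a16 also without either wild-type atRA+PKCi library. S100a4 measured 64.8 and 75.0 CPM with FBS and 62.8 and 72.8 CPM with atRA+PKCi, with overlapping libraries and a log2 fold change of -0.05 (95% interval -0.34 to 0.24). S100a3 (6.40 and 6.96 CPM against 5.47 and 4.92 CPM, edgeR adjusted p = 0.0827, and 0.0436 or 0.0452 without either wild-type FBS library) and S100a10 (edgeR adjusted p = 0.220) did not pass the test either.

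**Figure D2:**
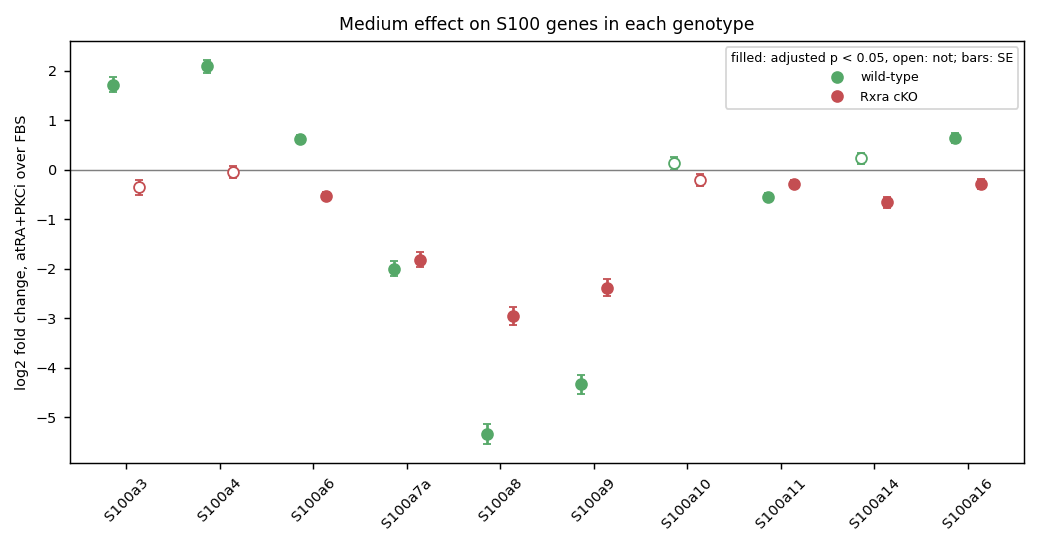
The y axis gives the log2 fold change of atRA+PKCi over FBS from edgeR for each of the 10 S100 genes (x axis) in wild-type and Rxra cKO HFSCs, with bars of 1 SE and filled points where the adjusted p was under 0.05. For S100a3 and S100a4 the wild-type points stand at 1.72 and 2.08 and the Rxra cKO points at -0.36 and -0.05, and for S100a8 at -5.34 and -2.96.

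The difference between these 2 responses was itself tested, as the interaction of genotype and medium. The response to atRA+PKCi differed between the labelled genotypes for 7 of the 10 S100 genes, where 24.6% of all genes were called. It was lower in Rxra cKO than in wild-type by a log2 difference of -2.13 ± 0.18 for S100a4 (edgeR adjusted p = 8.91e-05), -2.08 ± 0.21 for S100a3 (edgeR adjusted p = 0.00024) and -1.14 ± 0.10 for S100a6 (edgeR adjusted p = 0.000125). S100a16 and S100a14 had smaller log2 differences in the same direction, of -0.94 ± 0.14 (edgeR adjusted p = 0.00205) and -0.89 ± 0.15 (edgeR adjusted p = 0.00364). That of S100a14 missed the threshold by limma on the authors' normalized counts (limma adjusted p = 0.0503). S100a8 and S100a9 differed the other way, since they fell less in the labelled Rxra cKO libraries, by 2.38 ± 0.24 (edgeR adjusted p = 0.000225) and 1.95 ± 0.24 (edgeR adjusted p = 0.000621). S100a7a, S100a10 and S100a11 did not pass the test, with log2 differences of 0.18 (95% interval -0.31 to 0.67), -0.34 (95% interval -0.75 to 0.07) and 0.25 (95% interval -0.02 to 0.51). That of S100a10 passed without the second wild-type FBS library (-0.54, edgeR adjusted p = 0.025).

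Set side by side in atRA+PKCi, the labelled Rxra cKO libraries held 5 S100 genes at lower and 3 at higher levels than wild-type, against 20.2% and 23.0% of all genes (43.2% in all). S100a8 was 4.30-fold higher (log2 fold change 2.11 ± 0.18, edgeR adjusted p = 2.70e-05), S100a9 was 2.46-fold higher (log2 fold change 1.30 ± 0.17, edgeR adjusted p = 0.000387) and S100a11 was 1.60-fold higher (912 and 962 CPM against 611 and 562 CPM, edgeR adjusted p = 0.000232). S100a3 and S100a4 were lower by 1.33 ± 0.15 (edgeR adjusted p = 0.00013) and 1.25 ± 0.13 on the log2 scale (edgeR adjusted p = 7.64e-05). S100a6, S100a14 and S100a16 were lower by 0.68, 0.57 and 0.46 on the log2 scale, the last with edgeR adjusted p = 0.0062, which missed the threshold without the first Rxra cKO atRA+PKCi library (edgeR adjusted p = 0.0699) and by limma on the authors' normalized counts (limma adjusted p = 0.0762). S100a7a (log2 fold change -0.07, 95% interval -0.43 to 0.30) and S100a10 (0.31, 95% interval 0.02 to 0.60, edgeR adjusted p = 0.0838) did not pass. S100a10 was called higher with only the 4 libraries compared (edgeR adjusted p = 0.00193), without either wild-type FBS library (edgeR adjusted p = 0.021 and 0.0206), with a replicate block (edgeR adjusted p = 0.0312), with no filter (edgeR adjusted p = 0.00519) and by DESeq2 (DESeq2 adjusted p = 0.0135).

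With FBS, 7 of the 10 S100 genes were higher in the labelled Rxra cKO libraries and 1 was lower, against 22.3% and 20.5% of all genes (42.8% in all). The log2 fold changes of the 7 were 0.88 ± 0.13 for S100a4 (edgeR adjusted p = 0.000811), 0.75 for S100a3, 0.65 for S100a10, 0.47 for S100a16, 0.46 for S100a6, 0.43 for S100a11 and 0.32 for S100a14. S100a10 measured 466 and 605 CPM in wild-type and 765 and 912 CPM in Rxra cKO (edgeR adjusted p = 0.00372). The call of S100a14 (629.7 and 777 CPM against 817 and 941 CPM, edgeR adjusted p = 0.042) was lost when either Rxra cKO atRA+PKCi library, either wild-type atRA+PKCi library, the second Rxra cKO FBS or the first wild-type FBS library was left out (edgeR adjusted p between 0.059 and 0.226). S100a9 was lower (log2 fold change -0.65 ± 0.17, edgeR adjusted p = 0.0131), a call lost without the first Rxra cKO FBS library or without the second wild-type FBS library (edgeR adjusted p = 0.0937 and 0.0618). S100a8 and S100a7a had libraries that overlapped between the genotypes and did not pass, but both were called lower without the first wild-type FBS library (edgeR adjusted p = 0.0143 and 0.0355). The comparisons share libraries, so that those of S100a3, S100a4 and S100a6 in the 2 media are not independent of their interaction.

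Levels were compared between genes only per kilobase of exon. In wild-type FBS, the order began with S100a9 at 3151 ± 720 CPM per kilobase (SD, n = 2), S100a11 at 1678 ± 121 and S100a8 at 1457 ± 363, of which the last 2 lay within their spread of each other. In wild-type atRA+PKCi it began with S100a6 at 1226 ± 18.7 CPM per kilobase and S100a11 at 1148 ± 68.1, which lay within their spread of each other, and S100a9 and S100a8 stood seventh and eighth with 156 ± 18.3 and 35.9 ± 3.42. S100a11 led both Rxra cKO groups, with 2257 ± 16.3 CPM per kilobase in FBS, where S100a9 at 2006 ± 353 lay within its own spread of it, and 1834 ± 69.6 in atRA+PKCi. S100a3 was last in every group at 0.70 to 2.31 CPM per kilobase, with 5.66 kilobases of annotated exon.

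Genes that act with the S100 proteins were read from a list of 11, and the S100-fused genes, which join an S100-type domain to long repeats and build the cornified layer, from a list of 6. Of the 11 partners, 3 were higher and 6 lower in atRA+PKCi in wild-type HFSCs, beside the 27.2% and 26.6% of all genes given above, and 2 were higher and 5 lower in the labelled Rxra cKO, beside 20.8% and 22.2%. Anxa2, the partner of S100a10, measured 2371 and 2551 CPM with FBS and 1283 and 1194 CPM with atRA+PKCi in wild-type HFSCs, and Anxa1, the partner of S100a11, measured 2154 and 2733 CPM and then 985 and 1019 CPM. Both annexins were called lower, while S100a10 was not called and S100a11 was lower by 0.55. Ager, the receptor for S100 proteins outside the cell, was at most 2.85 CPM in any library and Tlr4, another such receptor, at most 6.15 CPM. In atRA+PKCi, 6 of the 11 partners were higher and 1 lower in the labelled Rxra cKO than in wild-type, beside 23.0% and 20.2% of all genes. With FBS 2 were higher and 1 lower, beside 22.3% and 20.5% of all genes. The interaction was called for 3 of the 11, beside 24.6% of all genes, which is near that share.

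The 6 fused genes were all lower in atRA+PKCi in wild-type HFSCs, where 26.6% of all genes were. Flg, which encodes profilaggrin, went from 91.2 and 51.2 CPM to 0.29 and 0.13 CPM, and Rptn, which encodes repetin, from 252 and 229.8 CPM to 0.83 and 1.05 CPM. In the labelled Rxra cKO, 4 of the 6 were lower, beside 22.2% of all genes, and Tchh, which encodes trichohyalin of the inner root sheath and medulla, was higher (17.3 and 21.8 CPM against 38.3 and 37.4 CPM). Flg remained at 8.01 and 8.31 CPM there. The interaction was called for all 6 fused genes, with a higher response in the labelled Rxra cKO (beside 13.3% of all genes), in the same direction as S100a8 and S100a9 and opposite to S100a3 and S100a4.

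Of the 7 other S100 genes listed, 6 were in the bulk table and only S100a1 and S100a13, which lie next to each other on the side of S100a14 away from S100a16, passed the filter. S100a1, a calcium sensor best known from muscle, was at 0 in both wild-type FBS libraries, at 0.03 and 0.10 CPM in wild-type atRA+PKCi, at 5.07 and 6.67 CPM in Rxra cKO FBS and at 11.3 and 11.7 CPM in Rxra cKO atRA+PKCi. S100a13, which takes part in the release of proteins without a signal peptide, measured 0.70 to 1.15 CPM in the wild-type and 11.7 to 15.4 CPM in the Rxra cKO libraries. Both genes were called higher in the labelled Rxra cKO in each medium, and neither had a called interaction.

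The cultured single cells addressed further media. Of the 449 barcodes of mouse 1 and 208 of mouse 2, 187 and 114 had 10% or more mitochondrial UMIs (molecule counts) and were left out. After the filters, 222 cells of mouse 1 and 78 cells of mouse 2 remained in 6 hashtag conditions: B-27, atRA+PKCi alone, and atRA+PKCi with R-spondin (Rspo), with BMP2/4, with both, or with both and a retinoic acid receptor inhibitor (RARi); no cell with the FBS hashtag remained. UMIs were summed per mouse and condition. In B-27 there were 5 and 10 cells, in BMP2/4 113 and 13 cells, in Rspo+BMP2/4 92 and 27 cells, and with RARi 5 and 21 cells. With atRA+PKCi alone there were only 2 and 1 cells, which were not tested.

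The BMP2/4 cultures also held atRA+PKCi and the B-27 cultures did not, so BMP2/4 and atRA+PKCi cannot be told apart in this comparison. Of the 10 S100 genes, 2 were higher and none lower in BMP2/4 than in B-27. Of the 6265 genes tested, 1.53% were called higher and 8.84% lower (10.4% in all). S100a4 measured 132 CPM in mouse 1 and 155 CPM in mouse 2 with B-27, and 1152 and 799 CPM with BMP2/4, a log2 fold change of 2.88 ± 0.71 (edgeR adjusted p = 0.0107) that was positive in both mice. S100a3 measured 5.29 and 4.55 CPM (1 UMI in each mouse) with B-27 and 32.2 and 43.1 CPM (119 and 22 UMIs) with BMP2/4, a log2 fold change of 2.97 ± 0.77 (edgeR adjusted p = 0.0145). The log2 difference of S100a3 within a mouse was 2.41 and 2.65, and by DESeq2 the gene did not pass (DESeq2 adjusted p = 0.0852). S100a6 had 3017 and 3869 CPM with B-27 and 12281 and 8876 CPM with BMP2/4 and did not pass the test (edgeR adjusted p = 0.189). S100a16, at 148 and 200.3 CPM with B-27 and 609 and 466 CPM with BMP2/4, did not pass either (log2 fold change 1.73 ± 0.66, edgeR adjusted p = 0.105), although both genes stood higher with BMP2/4 in both mice. Under another hashtag rule, S100a6 and S100a16 were called higher (edgeR adjusted p = 0.0198 and 0.0174). S100a14 (log2 fold change 1.02), S100a10 (0.64), S100a11 (0.56) and S100a7a (-0.76) did not pass, with edgeR adjusted p between 0.319 and 0.614.

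S100a8 and S100a9 differed between the mice. S100a8 measured 349 and 892 CPM with B-27 and 515 and 233 CPM with BMP2/4, higher in mouse 1 and lower in mouse 2, and S100a9 measured 1058 and 1539 CPM against 989.9 and 427 CPM. Neither passed the test (edgeR adjusted p = 0.552 and 0.490), and the log2 fold change of S100a8 was -0.63 with a 95% interval of -1.95 to 0.70. The suprabasal epidermis list summed to 5848 and 4912 CPM in B-27 and 564 and 511 CPM in BMP2/4, and the myeloid list was at most 33.7 CPM in any condition.

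Adding Rspo to BMP2/4, or RARi to both, gave no call by edgeR in any of the 6265 genes. At an unadjusted p under 0.05 there were 44 and 232 genes, of which 1 and 3 were S100 genes. S100a7a was among them each time, and S100a16 and S100a3 were the other S100 genes with RARi, at log2 fold changes of -1.48 and -1.06 (edgeR adjusted p = 0.959 for both). The other 9 genes had log2 fold changes between -0.21 (S100a4) and 0.73 (S100a9) when Rspo was added, and S100a4, S100a6, S100a8, S100a9, S100a10, S100a11 and S100a14 had -1.07 (S100a6) to -0.48 (S100a4) with RARi. S100a7a measured 33.0 and 21.5 CPM with BMP2/4, 72.2 and 150.3 CPM with Rspo+BMP2/4, and 0 and 8.30 CPM with RARi, from 0 of 96141 and 5 of 602601 UMIs. The counting floor of 3 UMIs stood at 31.2 CPM in mouse 1 with RARi. The log2 fold change with RARi was -3.99 ± 0.87 with edgeR adjusted p = 0.583, and it passed the threshold with no filter on low counts (-4.08, edgeR adjusted p = 3.09e-05) and with another hashtag rule (-3.59, edgeR adjusted p = 0.0455).

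**Figure D3:**
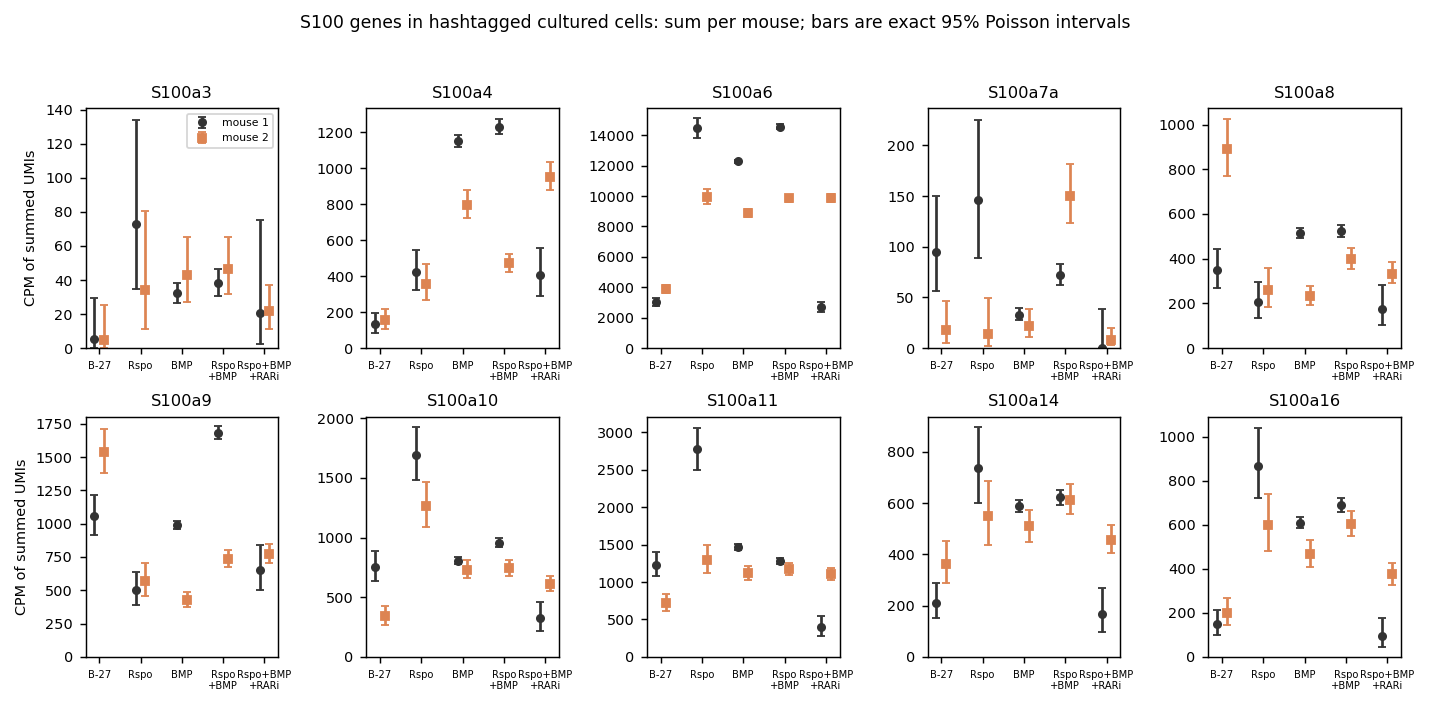
Each panel plots one S100 gene in CPM of the UMIs summed over the cells of a mouse (y axis, starting at 0) by medium, with exact 95% Poisson intervals that cover counting error only. Every medium shown except B-27 also held atRA+PKCi. S100a4 and S100a3 stand higher in BMP2/4 than in B-27 in both mice, while S100a8 moves in opposite directions (349 to 515 CPM in mouse 1 and 892 to 233 CPM in mouse 2).

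In anagen skin, 13591 cells of mouse 1 and 13080 cells of mouse 2 were kept, with medians of 8662 and 10361.5 UMIs, and fell into 28 clusters. S100 genes were left out of the genes used for clustering. Cells had been sorted as CD45-CD31-CD140a-CD117-, yet clusters with fibroblast, endothelial, melanocyte and immune genes were present. The 2 mice shared 62 cell barcodes. Levels are CPM of the UMIs summed per mouse and cluster and are given as a description, since the clusters come from the same cells.

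The hair shaft held S100a3. Its level was 443 CPM in mouse 1 and 288 CPM in mouse 2 in the hair shaft medulla-like cluster, and 423 and 215 CPM in the cortex-like cluster, which overlapped. The hair matrix-like cluster, the source of the shaft, held 11.4 to 20.1 CPM and the median cluster 7.55 CPM. No cluster was named as shaft cuticle. The genes whose levels over the 28 clusters were most like those of S100a3 were Krtap8-1, a hair keratin-associated protein (Pearson r = 0.907 on log2 values), Tgm3, a transglutaminase of hair and epidermis (r = 0.877), and Elmod1 (r = 0.869).

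The outer root sheath-like cluster, led by Pthlh, Krt6a and Krt14, had the highest levels of S100a6, S100a14 and S100a16. Of the 7 markers of that sheath, 6 were raised in it, all but Lgr5. An unnamed cluster led by Kcnb2, Fhod3 and Scrg1 had all 7 of these markers raised. It held less, with 992 to 1131 CPM of S100a6, 383 to 529 CPM of S100a14 and 409 to 533 CPM of S100a16. S100a14 measured 1054 and 669 CPM in the outer root sheath-like cluster and 575 to 820 CPM in the hair shaft medulla-like cluster, which overlapped. The inner root sheath-like cluster, at 564 to 798 CPM, overlapped too. S100a14 measured 525 to 648 CPM in the suprabasal epidermis-like cluster and 21.1 to 38.5 CPM over the 4 fibroblast-like clusters. The most like genes were Sfn (r = 0.983), Dsp (r = 0.967) and Perp (r = 0.957), the last 2 of which encode proteins of desmosomes, the junctions of epithelial cells. S100a16 measured 1264 and 835 CPM in the outer root sheath-like and 1028 and 726 CPM in the inner root sheath-like cluster, with 262 to 619 CPM in the fibroblast-like clusters. The genes most like S100a16 were Hebp2 (r = 0.758), Ppl (r = 0.751), which encodes periplakin, and Apoc1 (r = 0.710). Mouse 1 had the higher S100a14 and S100a16 level in all but 2 of the 28 clusters.

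S100a6, S100a10 and S100a11 were broad. S100a6 measured 3266 and 2741 CPM in the outer root sheath-like cluster, 1869 to 3169 CPM over the fibroblast-like clusters, which overlapped with it, and 158 and 183 CPM in the hair matrix-like cluster, the lowest. S100a10 was highest in a fibroblast-like cluster (1403 and 1363 CPM) and also reached 1335 and 1076 CPM in the hair shaft medulla-like cluster, beside 150.5 and 122 CPM in the cortex-like cluster. S100a11 was highest in another fibroblast-like cluster (1181 and 1088 CPM), with 1023 and 1175 CPM in the suprabasal epidermis-like cluster. S100a6 and S100a11 were each other's most like gene (r = 0.815). S100a6 was next most like Pdlim2 (r = 0.785) and Slc25a24 (r = 0.772), and S100a11 Slco2a1 (r = 0.760) and Anxa1 (r = 0.747). For S100a10 the genes were Tmsb10 (r = 0.839), Ust (r = 0.769) and Slc25a24 (r = 0.762).

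Calprotectin genes were found almost entirely in 1 unnamed cluster, led by Lyz2, Retnla and H2-Aa, in which 5 of 6 myeloid markers were raised. S100a9 measured 1607 and 2241 CPM there and at most 9.55 CPM in any other cluster, and S100a8 measured 641 and 879 CPM there and at most 22.3 CPM elsewhere. This cluster held 92.5% and 92.0% of all S100a9 UMIs of the mice and 83.1% and 85.4% of the S100a8 UMIs. Within it, only 5.88% of 204 cells in mouse 1 and 12.6% of 364 cells in mouse 2 had an S100a9 UMI, so few cells carried these counts. In the inner root sheath-like cluster 1.17% and 3.23% of cells had one, at a median depth of 10227 UMIs against 5104 UMIs in the Lyz2 cluster. Genes most like S100a8 were Igsf6 (r = 0.864) and the neutrophil granule genes Camp (r = 0.856) and Ngp (r = 0.856), and those most like S100a9 were C1qb (r = 0.9751), a complement gene of macrophages, F630028O10Rik (r = 0.972) and Cd300lb (r = 0.969). In the outer root sheath-like cluster S100a8 was at 0.618 and 1.25 CPM and S100a9 at 1.24 and 3.74 CPM, whereas the HFSCs cultured with BMP2/4 held S100a8 at 515 and 233 CPM; the 2 kinds of library were not tested against each other.

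S100a4 shared the Lyz2 cluster (823 and 728 CPM) and was as high in the cluster led by Ccl5, Gzma and Nkg7 (647 and 879 CPM), so that the mice overlapped. It measured 245 to 395 CPM in the Schwann-like cluster, 38.8 to 243 CPM over the fibroblast-like clusters and 4.99 to 6.18 CPM in the outer root sheath-like cluster. The unnamed cluster led by Kcnb2, Fhod3 and Scrg1 held 19.1 to 60.9 CPM. Most like S100a4 were Lgals1 (r = 0.807), Rassf2 (r = 0.806) and Tmem106a (r = 0.806). S100a7a was at most 7.21 CPM in any cluster of either mouse. Over the pairs of the 9 genes other than S100a7a, which reached 50 CPM in no cluster, levels across the clusters were most alike for S100a6 with S100a11 (r = 0.82) and S100a8 with S100a9 (r = 0.81), and least alike for S100a4 with S100a14 (r = -0.54); the clusters share 2 libraries and differ in depth.

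**Figure D4:**
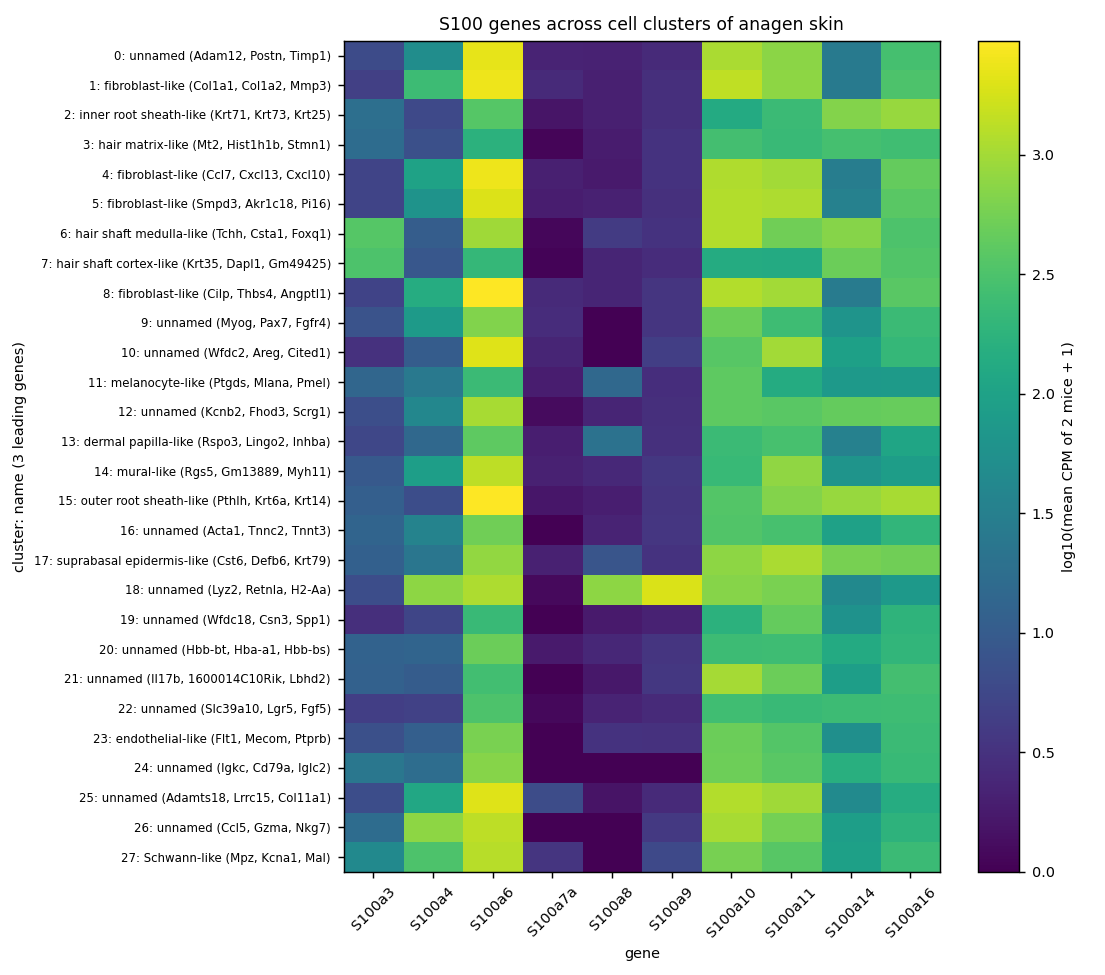
Colours give the log10 of the mean CPM of 2 mice plus 1 for each S100 gene (x axis) in each of 28 cell clusters of anagen skin (y axis, with the name or "unnamed" and 3 leading genes). S100a8 and S100a9 are bright in 1 row (760 and 1924 CPM), S100a3 in the hair shaft rows, and S100a7a nowhere.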

How the data were processed

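Bulk RNA-seq of cultured HFSCs and 10x single-cell RNA-seq of anagen skin and cultured HFSCs were used; ATAC-seq, CUT&RUN and separate hashtag samples were not used here. For bulk libraries the authors deposited expected counts from Salmon 1.4.0 (mm10), summarised to genes, and a column of normalized signal per sample, which was used in a limma alternative. For single cells the deposited matrices hold UMI counts from Cell Ranger.

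Expected counts were rounded and tested by the quasi-likelihood method of edgeR 4.0.16 (filterByExpr, TMM scaling, 4 group means, 4 residual degrees of freedom, Benjamini-Hochberg over 15965 genes, call at adjusted p under 0.05); the SE is the log2 fold change over the root of F. A test on simulated data preceded it. The libraries of a group came from 2 mice. Same-numbered libraries of a genotype came from 1 mouse, and their deviations correlated at 0.14 in wild-type and about 0.00 in Rxra cKO. Cultured cells needed 500 genes, 1000 UMIs, under 10% mitochondrial UMIs and 1 hashtag (HTODemux, quantile 0.99), and conditions needed 5 cells per mouse; sums per mouse were tested in the same way. Anagen cells passing those limits lost the 6% with the highest Scrublet score, because its automatic threshold marked 829 cells in mouse 1 and 0 in mouse 2. They were clustered with scanpy 1.11.5 (2000 variable genes before S100 genes were removed, 30 components, 15 neighbours, resolution 0.5) and named from fixed markers; clusters that failed the naming rule are unnamed. Intervals and floors (3 UMIs) cover counting error only. The naming rule took all 10 members in every comparison and, for each member reaching 50 CPM in a cluster (9 of 10), the 3 such genes with the most similar cluster levels. The members and lists were chosen with earlier results of these data known. Alternatives were DESeq2 1.42.0, limma 3.58.1, other filters, a replicate block, left-out libraries and other cell and cluster settings.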

Additional observations from a re-analysis of the deposited data

Results flagged for a closer look

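The response to the change from FBS to atRA+PKCi medium differed between wild-type and labelled Rxra cKO HFSCs for 7 S100 genes. This was the edgeR test of the difference itself. The log2 difference (Rxra cKO response minus wild-type response) was -2.13 for S100a4, -2.08 for S100a3, -1.14 for S100a6, -0.94 for S100a16 and -0.89 for S100a14, and 2.38 for S100a8 and 1.95 for S100a9. That of S100a14 missed the threshold by limma on the authors' normalized counts (limma adjusted p = 0.0503). The groups held 2 libraries each, and 24.6% of all genes tested passed the same test.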

How the results depend on the processing

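Precision is limited by 2 libraries or mice a group, by counts over whole genes, and by the number of cultured cells. The cause of the shifts below was not tested. With a stricter call, which took an adjusted p under 0.01 with a log2 fold change beyond 1 either way, genes called higher and lower numbered 1381 and 1579 for medium in wild-type, 817 and 1041 for medium in Rxra cKO, 1105 and 656 for genotype in FBS, 1406 and 675 for genotype in atRA+PKCi, and 694 and 440 for the interaction. Under that call 2 S100 genes were higher with medium in wild-type, 3 lower with medium in Rxra cKO, 0 higher and 0 lower with genotype in FBS, 2 lower with genotype in atRA+PKCi and 3 lower in the interaction. S100a7a, S100a8 and S100a9 stayed lower with medium in wild-type. S100a8 and S100a9 also stayed higher with genotype in atRA+PKCi and in the interaction. For genotype in FBS, 3 S100 genes were lower with no filter on low counts and 0 by limma on the authors' normalized counts. By limma, 2138 genes were lower with genotype in atRA+PKCi, the interaction gave 1336 higher and 975 lower, S100a4 with medium in Rxra cKO turned to 0.002859, and the interaction of S100a14 missed the threshold (limma adjusted p = 0.0503). Leaving out 1 library gave 0 to 3 lower S100 genes for genotype in FBS (0 without the first Rxra cKO FBS or the second wild-type FBS library, 3 without the first wild-type FBS library), 1971 to 3555 lower genes for genotype in atRA+PKCi, 2133 to 3724 higher and 2326 to 3890 lower genes for medium in Rxra cKO, and 1375 to 2484 higher and 961 to 1878 lower genes for the interaction. The lowest of these gene counts came without a Rxra cKO atRA+PKCi library. Uncalled log2 values that changed sign ranged from -0.05138 to 0.3234 (S100a10, medium in wild-type), -0.1574 to 0.07988 (S100a4, medium in Rxra cKO), -0.5101 to 0.001469 (S100a8, genotype in FBS), -0.1962 to 0.09651 (S100a7a, genotype in atRA+PKCi) and -0.02212 to 0.3583 (S100a7a, interaction). The replicate block (the mouse for medium, only a shared number for genotype) changed 1 call, S100a10 for genotype in atRA+PKCi (0.31, edgeR adjusted p = 0.0312), which also passed with DESeq2 (DESeq2 adjusted p = 0.0135) and without the filter (edgeR adjusted p = 0.00519). Correlations of same-numbered libraries between genotypes were 0.10 in FBS and about 0.00 in atRA+PKCi; in the cultured cells those between conditions ran from -0.29 to 0.25, and the replicate block of the mouse changed no call there.

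In the cultured cells, BMP2/4 against B-27 gave 1 higher S100 gene by DESeq2 (S100a4), 166 higher genes with no filter, and 277 higher and 851 lower genes with 4 higher S100 genes when a hashtag needed 70% of at least 20 counts (S100a6 and S100a16 were added). Rspo+BMP2/4 gave 7 higher and 5 lower genes with no filter, and with that hashtag rule S100a3, S100a10 and S100a14 turned to -0.005737, -0.002511 and -0.04042 on the log2 scale. RARi gave 7 higher and 2 lower genes with no filter and 9 higher and 3 lower genes with the hashtag rule, and 1 lower S100 gene, S100a7a, each time. The stricter cell filter left too few cultured cells in every condition and was not run. In anagen skin, the highest cluster reached 3744 CPM for S100a6, 1731 CPM for S100a10 and 1498 CPM for S100a11 at resolution 1.0; 512.5 CPM for S100a8, 1257 CPM for S100a9, 1571 CPM for S100a10, 1290.0 CPM for S100a11 and 665 CPM for S100a16 with 1000 genes and under 5% mitochondrial UMIs; and 1787 CPM for S100a10 and 1527 CPM for S100a11 with S100 genes kept for clustering.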

Other observations

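S100a1 was highest in the melanocyte-like cluster of anagen skin, at 1471 CPM in mouse 1 and 728 CPM in mouse 2. The authors' normalized values of S100a7a in wild-type atRA+PKCi were 280.2 and 472, although the deposited counts of these 2 libraries were 351 and 353.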
